A study of Mus musculus with 24 samples.

Results

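The genes described here encode 4 carriers that move sugars, and in the case of Slc2a9 also urate, across the membranes of small intestinal enterocytes: Slc5a1 (ENSMUSG00000011034), Slc2a2 (ENSMUSG00000027690), Slc2a5 (ENSMUSG00000028976) and Slc2a9 (ENSMUSG00000005107). They were chosen by symbol, as 4 of the 57126 gene identifiers in the count table, and all 4 were among the 13125 genes with enough counts to be tested. Their mRNA was counted by QuantSeq, which sequences a short tag near the 3' end of each polyadenylated transcript, in pieces of ileum from wild-type C57BL/6J males that had been starved for 4 h. The tissue was cultured for 8 h with an additive, and the tissue was wild-type in every library. The 6 additives were DMSO (the solvent, 0.6% in the libraries used), tauro-conjugated chenodeoxycholic acid (tauroCDCA, tCDCA), and 4 bile acid extracts. The donors of the extracts were wild-type (WT) or Asbt-/-, and extracts of each came as CME(-) and as CME(+). Asbt is the bile acid uptake carrier of the ileum, and the Asbt-/- genotype belongs to the extract donor, not to the tissue. The labels do not spell out CME. CME(+) was taken as the form depleted of bile acids, because 200 µM is given for CME(-) and for tCDCA replicates 2 to 4 and not for CME(+). No concentration is given for replicate 1 of any treated group.

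Of 24 libraries, 21 were compared: 4 each of tCDCA, WT CME(-) and Asbt-/- CME(+), and 3 each of DMSO, WT CME(+) and Asbt-/- CME(-). The submitters removed the other 3. The libraries carry 2 column prefixes, taken as 2 sequencing runs: replicate 1 of each group is the first run (5 libraries used, none of them DMSO) and replicates 2 to 4 the second (16 used). Totals were 2.76 to 5.60 M counts per library. The share of counts from mitochondrial rRNA was 6.78 to 8.29% in first-run libraries. In the second run it was 17.6 to 34.6%, except for tCDCA replicate 3, at 5.29%. That library stood apart from tCDCA replicates 2 and 4, with a chi-square per degree of freedom of 101 and 76.4 against them, where those 2 differed by 10.7. Markers of the ileum were present throughout, with Fabp6, the ileal bile acid binding protein, at 2624 to 8249 CPM (tag counts scaled to a common library total), while the colon marker Hoxb13 had 0 counts and Car1 at most 7. Whether pieces of 1 group were cut from different animals is not stated in the labels. The p-values below therefore speak only for the spread among these libraries, and for the tissue that spread may be technical. The labels name a different extract donor for each second-run library of an extract group. Spread within the extract groups can thus also include differences between donors.

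Dietary sugar crosses the enterocyte in steps. SGLT1, the product of Slc5a1, takes up glucose and galactose from the lumen together with sodium, and GLUT5, the product of Slc2a5, takes up fructose without sodium. GLUT2, the product of Slc2a2, passes glucose, galactose and fructose out to the blood side, and GLUT9, the product of Slc2a9, is best known for carrying urate. All are made in differentiated absorptive cells of the villus. Bile acids are sensed in the same cells by FXR, a nuclear receptor for which chenodeoxycholic acid is a strong ligand.

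The stretches of DNA just upstream of the 4 genes are shown because the 4 mRNAs moved together with tCDCA. Each is the 250 bases before the RefSeq start in GRCm38.p6, read 5' to 3' on the gene's strand. Capitals mark AGGTCA or its reverse complement TGACCT, the core letters read by many nuclear receptors.
Slc5a1 (chr5:33103969-33104218, forward strand): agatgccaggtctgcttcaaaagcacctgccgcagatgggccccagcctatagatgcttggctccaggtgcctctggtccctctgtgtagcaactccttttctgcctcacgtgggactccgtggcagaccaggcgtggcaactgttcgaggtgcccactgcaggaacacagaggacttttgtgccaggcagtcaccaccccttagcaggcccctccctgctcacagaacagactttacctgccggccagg
Slc2a2 (chr3:28697653-28697902, forward strand): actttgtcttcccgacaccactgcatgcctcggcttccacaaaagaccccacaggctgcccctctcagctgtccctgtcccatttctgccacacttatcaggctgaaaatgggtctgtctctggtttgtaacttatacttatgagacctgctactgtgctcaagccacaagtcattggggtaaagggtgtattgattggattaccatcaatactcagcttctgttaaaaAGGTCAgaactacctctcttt
Slc2a5 (chr4:150119094-150119343, forward strand): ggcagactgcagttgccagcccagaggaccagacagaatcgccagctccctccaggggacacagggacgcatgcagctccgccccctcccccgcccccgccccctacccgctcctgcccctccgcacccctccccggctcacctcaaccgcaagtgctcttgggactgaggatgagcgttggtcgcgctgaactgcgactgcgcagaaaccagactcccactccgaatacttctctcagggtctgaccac
Slc2a9 (chr5:38483386-38483635, reverse strand): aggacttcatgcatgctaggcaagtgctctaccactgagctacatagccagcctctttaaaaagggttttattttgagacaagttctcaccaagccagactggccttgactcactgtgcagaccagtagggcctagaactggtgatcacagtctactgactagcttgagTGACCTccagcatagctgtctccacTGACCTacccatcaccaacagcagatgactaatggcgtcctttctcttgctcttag
The core letters were found once in the Slc2a2 window, with the first base 21 bases before the start, and at 2 places in the Slc2a9 window, 81 and 56 bases before it. The windows of Slc5a1 and Slc2a5 held 0 matches. On either strand, 14% of 32851 upstream windows of the same length hold these letters. The Slc2a9 window lies inside the annotated gene, so it belongs to an internal start, and 3' tags do not tell which start was used. Windows of Slc5a1 and Slc2a5 were richer in G and C (60% and 66.4%) than those of Slc2a2 and Slc2a9 (47.2% and 48.8%). CACGTG, the letters of an E-box, was searched as a single box. It was found once in the Slc5a1 window, 143 bases before the start, and 6.02% of windows hold it. CAAAGT, a short form of the letters read by HNF4, was found once in the Slc2a2 window, 250 bases before the start, against 12.6% of windows. All letters were searched on both strands. GTTAAT, read by HNF1, was in none of the 4 windows, against 6.43% of all windows. The same held for AGATAA, read by GATA factors (9.99%), for TTTATG, read by CDX2 (10.8%), and for TATAAA, the core promoter box (12.4%). Such matches are descriptions of the letters and not evidence of binding.

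Levels are CPM after scaling by the trimmed mean of M-values (TMM). A 3' tag method gives about 1 tag per transcript whatever its length, but levels were still not ranked between genes. The glucose carrier Slc5a1 was at 850, 881 and 675 CPM in the 3 DMSO libraries (802 ± 111, SD, n = 3) and at 402, 289 and 296 CPM in the second-run tCDCA libraries (329 ± 63.0, n = 3). WT CME(-) gave 473, 424 and 636 CPM, WT CME(+) 784 and 825, Asbt-/- CME(-) 572 and 531, and Asbt-/- CME(+) 438, 663 and 469.7. The order of the means was thus WT CME(+) and DMSO, then the other 3 extracts, then tCDCA. The ranges of neighbouring groups overlapped, except between DMSO and Asbt-/- CME(-) and between WT CME(-) and tCDCA. How many of all genes show such gaps was not counted.

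Slc2a2, the basolateral glucose and fructose carrier, was at 69.4, 41.3 and 68.1 CPM with DMSO (59.6 ± 15.9, n = 3) and at 18.0, 2.61 and 4.71 CPM with tCDCA (8.44 ± 8.34, n = 3). It was at 16.2, 19.1 and 30.0 CPM with WT CME(-), 44.7 and 57.7 with WT CME(+), 25.4 and 14.5 with Asbt-/- CME(-), and 16.9, 45.0 and 34.6 with Asbt-/- CME(+). Every DMSO library was above every tCDCA library, but the share of all genes separated in this way was not counted. By their means the groups ran from DMSO through WT CME(+), Asbt-/- CME(+), WT CME(-) and Asbt-/- CME(-) to tCDCA, and each group's range overlapped that of the next. The tCDCA value of replicate 3 rests on 10 counts, with an exact Poisson 95% interval of 4.80 to 18.4 counts that covers counting error only.

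Slc2a5, the fructose carrier, was at 90.2, 170.3 and 148 CPM with DMSO (136 ± 41.4, n = 3) and at 36.7, 4.96 and 10.7 CPM with tCDCA (17.4 ± 16.9, n = 3). WT CME(-) gave 25.9, 34.9 and 53.9 CPM, WT CME(+) 71.6 and 101, Asbt-/- CME(-) 34.6 and 47.4, and Asbt-/- CME(+) 25.5, 67.9 and 39.6. DMSO and WT CME(+) were the highest groups and overlapped each other. In the second run neither overlapped the remaining 4 groups, whose ranges overlapped from one to the next. WT CME(+) has only 2 libraries there, and its lower value (71.6 CPM) was close to the highest of Asbt-/- CME(+) (67.9 CPM). The edgeR test called Slc2a5 in no comparison between extracts. The share of all genes with such gaps was not counted. Replicate 2 of tCDCA was the highest of its group for both Slc2a2 and Slc2a5, inside the range of the extracts.

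Slc2a9, the urate and hexose carrier, was at 22.3, 20.3 and 20.8 CPM with DMSO (21.1 ± 1.06, n = 3) and at 4.07, 7.05 and 5.34 CPM with tCDCA (5.49 ± 1.49, n = 3). WT CME(-) gave 17.7, 12.2 and 16.6 CPM, WT CME(+) 21.1 and 22.5, Asbt-/- CME(-) 13.5 and 18.8, and Asbt-/- CME(+) 13.9, 16.9 and 30.2. The highest second-run tCDCA library (7.05 CPM) was below the lowest second-run library of any other group (12.2 CPM). These 2 values rest on 27 and 34 counts, with exact Poisson 95% intervals of 17.8 to 39.3 and 23.5 to 47.5 counts. The share of all genes separated in this way was not counted. The other 5 groups were close to each other, and each overlapped its neighbour in the order of the means. Over all 16 second-run libraries the highest value was 3.05 times the lowest for Slc5a1, 7.41 times for Slc2a9, 26.6 times for Slc2a2 and 34.3 times for Slc2a5.

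The 5 first-run libraries stood apart. Slc2a2 was at 1.49 CPM with tCDCA, 1.72 with WT CME(-), 6.15 with WT CME(+), 1.76 with Asbt-/- CME(-) and 3.00 with Asbt-/- CME(+), each below every second-run library of its own group. Slc2a5 was at 9.22, 10.7, 8.69, 8.99 and 21.9 CPM and Slc2a9 at 3.72, 8.38, 6.79, 8.60 and 10.9 CPM in the same order. Slc5a1 was at 328, 467, 372, 340.1 and 459 CPM. With group held constant, the second run was higher by 3.20 ± 0.40 log2 units (SE) for Slc2a2 (9.20-fold, edgeR adjusted p = 5.27e-06), by 1.72 ± 0.44 for Slc2a5 (adjusted p = 0.00692), by 0.98 ± 0.21 for Slc2a9 (adjusted p = 2.99e-04) and by 0.38 ± 0.14 for Slc5a1 (adjusted p = 0.0245). Between the runs 4893 genes, 37.3% of those tested, differed. Of the libraries removed by the submitters, the first-run DMSO library, at 0.5% DMSO, had 432, 2.82, 17.7 and 10.4 CPM of Slc5a1, Slc2a2, Slc2a5 and Slc2a9. Asbt-/- CME(-) replicate 3, removed for poor mapping, had 611, 30.3, 41.7 and 18.8 CPM. WT CME(+) replicate 2, removed for the same reason, had 1285, 47.0, 202 and 23.5 CPM.

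**Figure D1:**
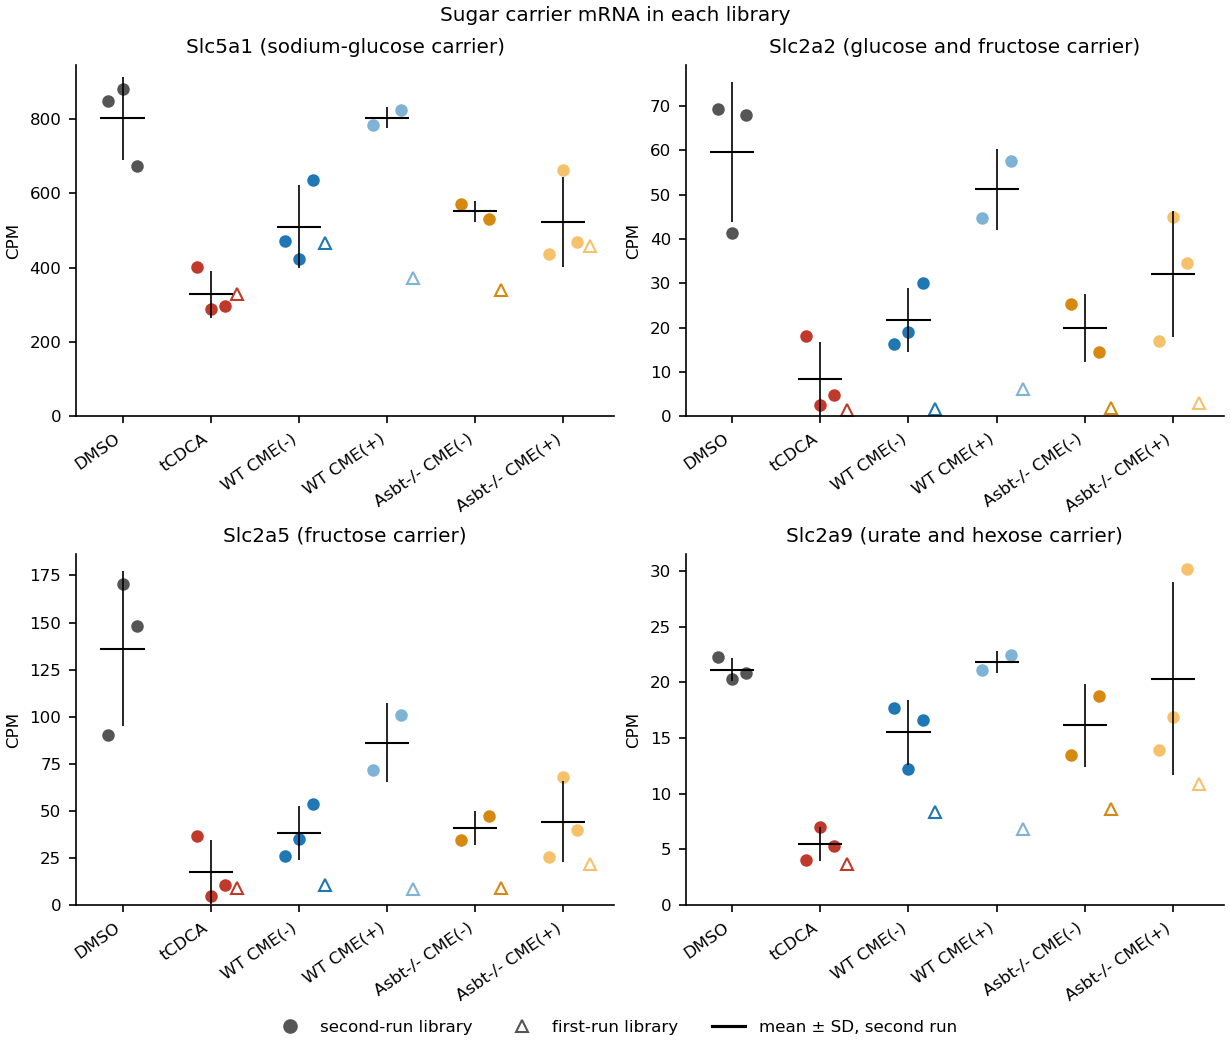
CPM of each carrier gene (vertical axis, linear, starting at 0) in each library by treatment group (horizontal axis). Filled circles are second-run libraries, open triangles first-run libraries, and the bar and line are mean ± SD of the second run. The second-run tCDCA libraries of Slc2a9 (4.07 to 7.05 CPM) lie below every other second-run library.

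With tCDCA all 4 carrier mRNAs fell. Relative to DMSO, the fructose carrier Slc2a5 fell 6.79-fold (log2 -2.76 ± 0.60, SE, 95% interval -4.04 to -1.49), with an edgeR adjusted p of 0.0135. The basolateral carrier Slc2a2 fell 6.69-fold (-2.74 ± 0.48, -3.76 to -1.72, adjusted p = 0.00190). Slc2a9 fell 3.50-fold (-1.81 ± 0.31, -2.43 to -1.19, adjusted p = 1.20e-04), and Slc5a1 2.27-fold (-1.18 ± 0.20, -1.58 to -0.78, adjusted p = 9.42e-05). In this comparison 746 of 13125 genes (5.68%) passed an adjusted p of 0.05, and 415 of them (3.16%) were lower. By size of decrease, Slc2a5 was the gene at rank 20 of all genes tested, Slc2a2 at rank 22, Slc2a9 at rank 137 and Slc5a1 at rank 528. In bulk tissue, fewer cells of a type and less mRNA per cell cannot be told apart. The calls for Slc2a2 and Slc2a5 were lost without the run term (adjusted p = 0.195 and 0.0723) and with DMSO and tCDCA fitted alone (0.0918 and 0.0518), and that for Slc2a5 without DMSO replicate 3 (0.0605) or tCDCA replicate 4 (0.0502). Replicate 2 of tCDCA held the highest second-run tCDCA values of Slc5a1, Slc2a2 and Slc2a5 and the lowest of Slc2a9. Without that library, Slc2a2 was at -3.57 log2 units. Slc5a1 and Slc2a9 passed in all 16 alternatives run. The library that stood apart, tCDCA replicate 3, held the lowest second-run values of Slc5a1, Slc2a2 and Slc2a5. Without it all 4 carriers were still called lower, Slc5a1 at -1.07 (adjusted p = 0.00122), Slc2a2 at -2.31 (0.00163), Slc2a5 at -2.36 (0.0296) and Slc2a9 at -1.90 (3.14e-04).

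With the extracts, none of the 4 carriers passed the threshold against DMSO by the edgeR test. The comparisons share the 3 DMSO libraries with each other and with the tCDCA comparison. With WT CME(-), 3 of 4 carriers had an unadjusted p under 0.05: Slc5a1 was at -0.58 log2 units (95% interval -0.98 to -0.19, adjusted p = 0.244), Slc2a2 at -1.52 (-2.46 to -0.57, adjusted p = 0.212) and Slc2a5 at -1.86 (-3.08 to -0.65, adjusted p = 0.258). Slc2a9 was at -0.42 (-1.01 to 0.17). Of all 13125 genes, 39 (0.297%) were called here and 1231 had an unadjusted p under 0.05, and DESeq2 called 0 carriers. Asbt-/- CME(-) gave much the same 4 values, -0.64, -1.63, -1.86 and -0.36 for Slc5a1, Slc2a2, Slc2a5 and Slc2a9, with adjusted p of 0.145, 0.153, 0.214 and 0.714. In this comparison 125 genes (0.952%) were called, and 1625 genes and 3 of 4 carriers had an unadjusted p under 0.05. DESeq2 called 1 carrier, Slc2a2 (-1.65, adjusted p = 0.0411).

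With the CME(+) forms the values lay nearer to 0. WT CME(+) had Slc5a1 at -0.20 (95% interval -0.62 to 0.22), Slc2a2 at -0.18 (-1.19 to 0.83), Slc2a5 at -0.99 (-2.26 to 0.28) and Slc2a9 at -0.14 (-0.77 to 0.48). For this extract 23 genes (0.175%) were called and 1317 had an unadjusted p under 0.05. Of the carriers, 0 had an unadjusted p under 0.05 or were called by DESeq2. Asbt-/- CME(+) had Slc5a1 at -0.56 (-0.96 to -0.17, adjusted p = 0.122), Slc2a2 at -0.92 (-1.83 to -0.01, adjusted p = 0.318), Slc2a5 at -1.43 (-2.64 to -0.23, adjusted p = 0.229) and Slc2a9 at -0.03 (-0.61 to 0.55). Here 303 genes (2.31%) were called, and 1997 genes and 3 of 4 carriers had an unadjusted p under 0.05, while DESeq2 called 0 carriers.

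**Figure D2:**
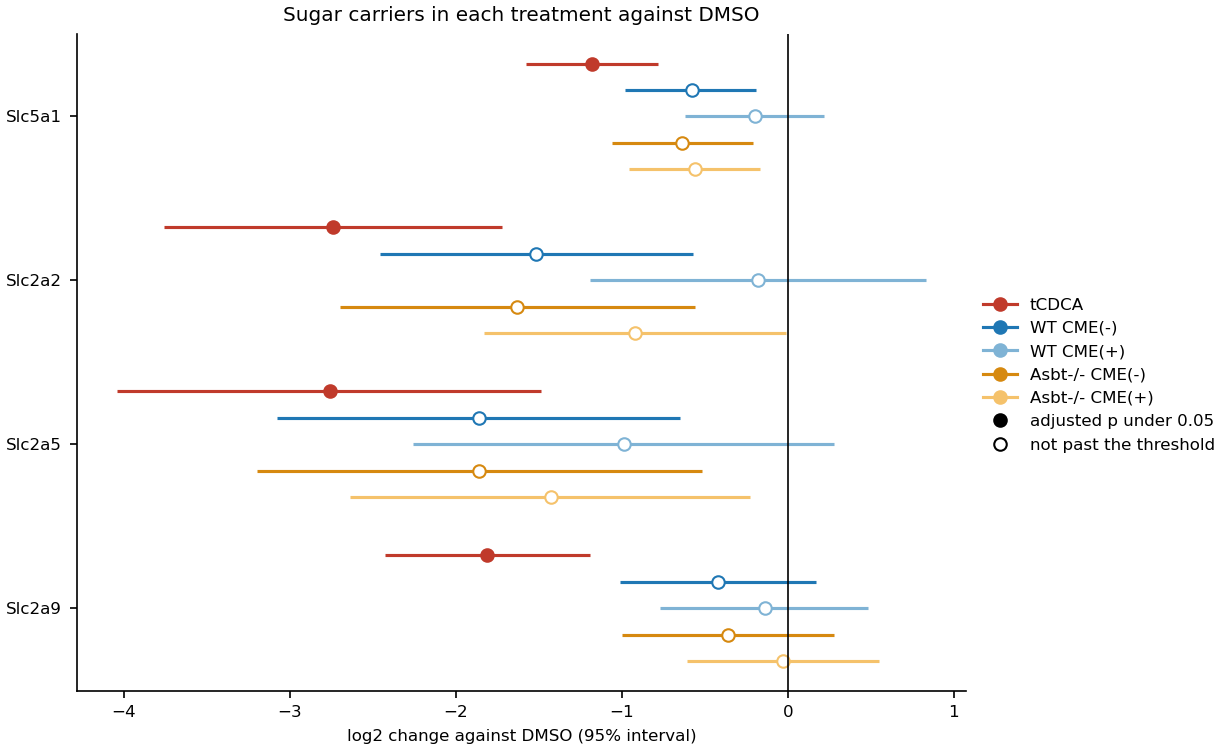
Log2 change of each carrier gene (points) with its 95% interval (lines) with each of the 5 treatments against DMSO (horizontal axis), from the edgeR model of 21 libraries, with colours for treatments. Filled points passed an adjusted p of 0.05. All 4 genes are filled for tCDCA (-2.76 to -1.18), and none for an extract.

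The direct comparison of tCDCA with each extract asks whether the pure bile acid and the extracts left different carrier levels, and shares the 4 tCDCA libraries throughout. Slc2a9 was lower with tCDCA than with each of the 4 extracts. Against WT CME(-) it was at -1.39 ± 0.29 log2 units (2.62-fold lower, edgeR adjusted p = 0.0132), where 71 genes (0.541%) were called. Against Asbt-/- CME(-) it was at -1.45 ± 0.31 (adjusted p = 0.0393, 15 genes or 0.114% called). Against WT CME(+) it was at -1.66 ± 0.31 (adjusted p = 0.00171, 203 genes or 1.55% called), and against Asbt-/- CME(+) at -1.78 ± 0.29 (adjusted p = 3.50e-04, 253 genes or 1.93% called).

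The other carriers separated tCDCA less clearly from the extracts. Slc5a1 was 1.97-fold lower than with WT CME(+) (-0.98 ± 0.19, adjusted p = 0.00272), and Slc2a2 was 5.89-fold lower (-2.56 ± 0.49, adjusted p = 0.0103). Slc2a5 was at -1.77 ± 0.59 there and did not pass (adjusted p = 0.194). Against Asbt-/- CME(+), Slc5a1 was at -0.62 (adjusted p = 0.0639), Slc2a2 at -1.82 (adjusted p = 0.0536) and Slc2a5 at -1.33 (adjusted p = 0.322). Against WT CME(-) the same genes were at -0.60 (95% interval -0.96 to -0.23), -1.22 (-2.24 to -0.21) and -0.90 (-2.12 to 0.32), and against Asbt-/- CME(-) at -0.54 (-0.93 to -0.15), -1.11 (-2.22 to -0.00) and -0.90 (-2.20 to 0.40), with 0 of these 6 values passing. The doses of tCDCA and CME(-) were both labelled 200 µM in the second run, as total extract for CME(-), whose bile acid makeup is not given in the labels.

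Against Asbt-/- CME(-) the Slc2a9 call was kept in 6 of 16 alternatives. It was lost on leaving out Asbt-/- CME(-) replicate 1 (adjusted p = 0.0501), 2 (0.108) or 4 (0.323) or tCDCA replicate 2 (0.145), 3 (0.0760) or 4 (0.127). Against WT CME(-) the Slc2a9 call was lost without tCDCA replicate 4 (0.0636), and Slc2a2 passed without tCDCA replicate 2 (-2.04, 0.0240). Against WT CME(+) the calls of Slc5a1 and Slc2a2 were lost without WT CME(+) replicate 4 (0.0661 and 0.0885), and Slc2a2 was at -3.36 without tCDCA replicate 2. Against Asbt-/- CME(+), Slc5a1 passed without tCDCA replicate 1 (0.0297), Slc2a2 passed without tCDCA replicate 2 (0.00142), and both passed without Asbt-/- CME(+) replicate 2 (0.0457 and 0.0211). Without tCDCA replicate 3, the library that stood apart, 3 carriers were called against WT CME(+), 1 against WT CME(-), 1 against Asbt-/- CME(+) and 0 against Asbt-/- CME(-). The Slc2a2 value against WT CME(-) was then -0.82, and that of Slc2a5 -0.53.

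The comparison of CME(-) with CME(+) asks what differs between the 2 forms of an extract, with CME(+) taken as the form depleted of bile acids. The labels tie same-numbered replicates 2 to 4 of both forms to 1 extract donor. For the WT extract Slc2a2 was at -1.33 ± 0.46 log2 units in CME(-) relative to CME(+) (95% interval -2.31 to -0.36, adjusted p = 0.586), Slc2a5 at -0.87 (-2.09 to 0.35), Slc5a1 at -0.38 (-0.77 to 0.00) and Slc2a9 at -0.27 (-0.86 to 0.31). The edgeR test called 0 genes (0%), with 831 genes and 1 carrier at an unadjusted p under 0.05, and DESeq2 called 123 genes and 0 carriers. For the Asbt-/- extract the values were -0.71 (-1.73 to 0.31) for Slc2a2, -0.43 (-1.68 to 0.82) for Slc2a5, -0.34 (-0.92 to 0.25) for Slc2a9 and -0.07 (-0.46 to 0.32) for Slc5a1. Here 3 genes (0.0229%) and 0 carriers were called, 0 carriers had an unadjusted p under 0.05, and DESeq2 called 0 carriers. With the extract donor as a replicate block, 1 gene was called for WT and 22 for Asbt-/-, and 0 carriers in each. That fit held all used extract libraries, paired or not, with the first-run libraries as 1 block.

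The difference between these 2 contrasts was 0.62 ± 0.67 log2 units for Slc2a2 (95% interval -0.78 to 2.03), 0.44 ± 0.82 for Slc2a5, 0.31 ± 0.27 for Slc5a1 and -0.06 ± 0.41 for Slc2a9. It passed for 0 genes by edgeR (491 genes and 0 carriers at an unadjusted p under 0.05, 57 genes by DESeq2, and 1 gene with the extract donor as a block). Between donors, Asbt-/- against WT, the CME(-) values were -0.05 for Slc5a1 (-0.45 to 0.34), -0.11 for Slc2a2 (-1.16 to 0.93), 0.00 for Slc2a5 (-1.30 to 1.31) and 0.06 for Slc2a9 (-0.54 to 0.66). The CME(+) values were -0.36 (-0.75 to 0.02), -0.74 (-1.67 to 0.20), -0.44 (-1.64 to 0.76) and 0.12 (-0.45 to 0.69) in the same order. The edgeR test called 0 genes in each, with 531 and 556 genes and 0 carriers at an unadjusted p under 0.05, and DESeq2 called 113 and 82 genes and 0 carriers.

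Genes of mature enterocytes were lower in the same libraries as the carriers. The summed level of 16 enterocyte markers (among them Vil1, Alpi, Fabp1 and Anpep) was 6386 to 11573 CPM with DMSO and 2088 to 4160.4 CPM in the second-run tCDCA libraries. It was 4184 to 7157 with WT CME(-), 6219 to 7185 with WT CME(+), 3809 to 4641 with Asbt-/- CME(-) and 3165 to 4926 with Asbt-/- CME(+), and 2532 to 4293 in the first run. No marker of this list was at 0 in all libraries. Of the 16, 12 were called lower with tCDCA (median -1.56, against 0.00 over all genes tested), for example the brush border peptidase gene Anpep (-1.55 ± 0.22) and the peptide carrier gene Slc15a1 (-1.86 ± 0.27). The sum over 7 markers of the whole epithelium, such as Epcam and Cdh1, was 3882 to 4676 CPM with DMSO, 3705 to 4409 in the second-run tCDCA libraries and 4872 to 5686 in the first run, with Krt18 (1.15 ± 0.27) and Krt19 (0.62 ± 0.19) called higher and Krt20 (-0.71 ± 0.21) lower. Markers of the villus tip summed to 435 to 1215 CPM with DMSO and 59.8 to 380.1 with second-run tCDCA, with 1 of 5 called lower (Creb3l3, median of the list -1.67).

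Markers of secretory cells did not all move down with those of enterocytes. Paneth cell markers summed to 23130.0 to 26933 CPM with DMSO and 31165 to 48439.9 in second-run tCDCA libraries, and 3 of 6, Defa30 (0.73 ± 0.20), Ang4 (0.69 ± 0.20) and Mmp7 (0.63 ± 0.19), were called higher. In the second run this sum was 34103 to 43118 with WT CME(-), 28428 to 28744 with WT CME(+), 35757 to 55580.4 with Asbt-/- CME(-) and 25958 to 28793 with Asbt-/- CME(+). Enteroendocrine markers summed to 244 to 279 CPM with DMSO and 322 to 444 with second-run tCDCA, and 3 of 7, the hormone genes Tac1 (1.42 ± 0.25), Cck (0.95 ± 0.23) and Gcg (0.93 ± 0.22), were called higher. Of 7 goblet cell markers 2, Fcgbp (-0.71 ± 0.17) and Zg16 (-0.56 ± 0.17), were called lower. Crypt stem cell and proliferation markers had 0 called in either direction, and so had those of fibroblasts, whose sum was 449.6 to 474 CPM with DMSO and 226 to 437 with second-run tCDCA. The part of these shifts in the carrier results was not tested beyond the ratios that follow.

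Each carrier was then expressed relative to the summed enterocyte markers of its own library, on a log2 scale. With tCDCA, Slc5a1 was at 0.38 log2 units above DMSO on this scale, as its mRNA had fallen less than the marker sum. Slc2a9 was at -0.44, Slc2a2 at -2.10 and Slc2a5 at -1.84. These means include the first-run libraries, which DMSO lacks, and without them the values were 0.35, -0.34, -1.62 and -1.76 for Slc5a1, Slc2a9, Slc2a2 and Slc2a5. With the marker sum as reference, Slc2a5 was the carrier whose ratio in every library of each of the 5 treatments lay below all 3 DMSO libraries. Its mean difference was -1.84 with tCDCA, -1.49 with WT CME(-), -1.06 with WT CME(+), -1.18 with Asbt-/- CME(-) and -0.81 with Asbt-/- CME(+). In second-run libraries alone these were -1.76, -1.11, -0.29, -0.69 and -0.60, still without overlap, although with WT CME(+) the highest ratio (-6.16) was only just below the lowest of DMSO (-6.15). With the mean log2 level of the same markers as reference, WT CME(+) overlapped DMSO for Slc2a5 (highest -1.28 against lowest -1.31), and the other 4 treatments did not. The share of all genes whose ratio is separated from DMSO in this way was not counted. These 5 comparisons share their DMSO libraries, and 4 against 3 libraries cannot give an exact two-sided permutation p below 0.0571, nor 3 against 3 one below 0.1. Of 20 such tests, 0 passed after adjustment (0.381 for each Slc2a5 comparison). Relative to the epithelium markers instead, tCDCA gave -1.31 for Slc5a1, -3.79 for Slc2a2, -3.53 for Slc2a5 and -2.14 for Slc2a9 over both runs, and -1.20, -3.17, -3.30 and -1.88 in second-run libraries alone, an alternative chosen after seeing the data. All 20 differences were below 0 over both runs and 19 in the second run, where WT CME(+) had Slc2a9 at 0.00 and Slc5a1 at -0.03.

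**Figure D3:**
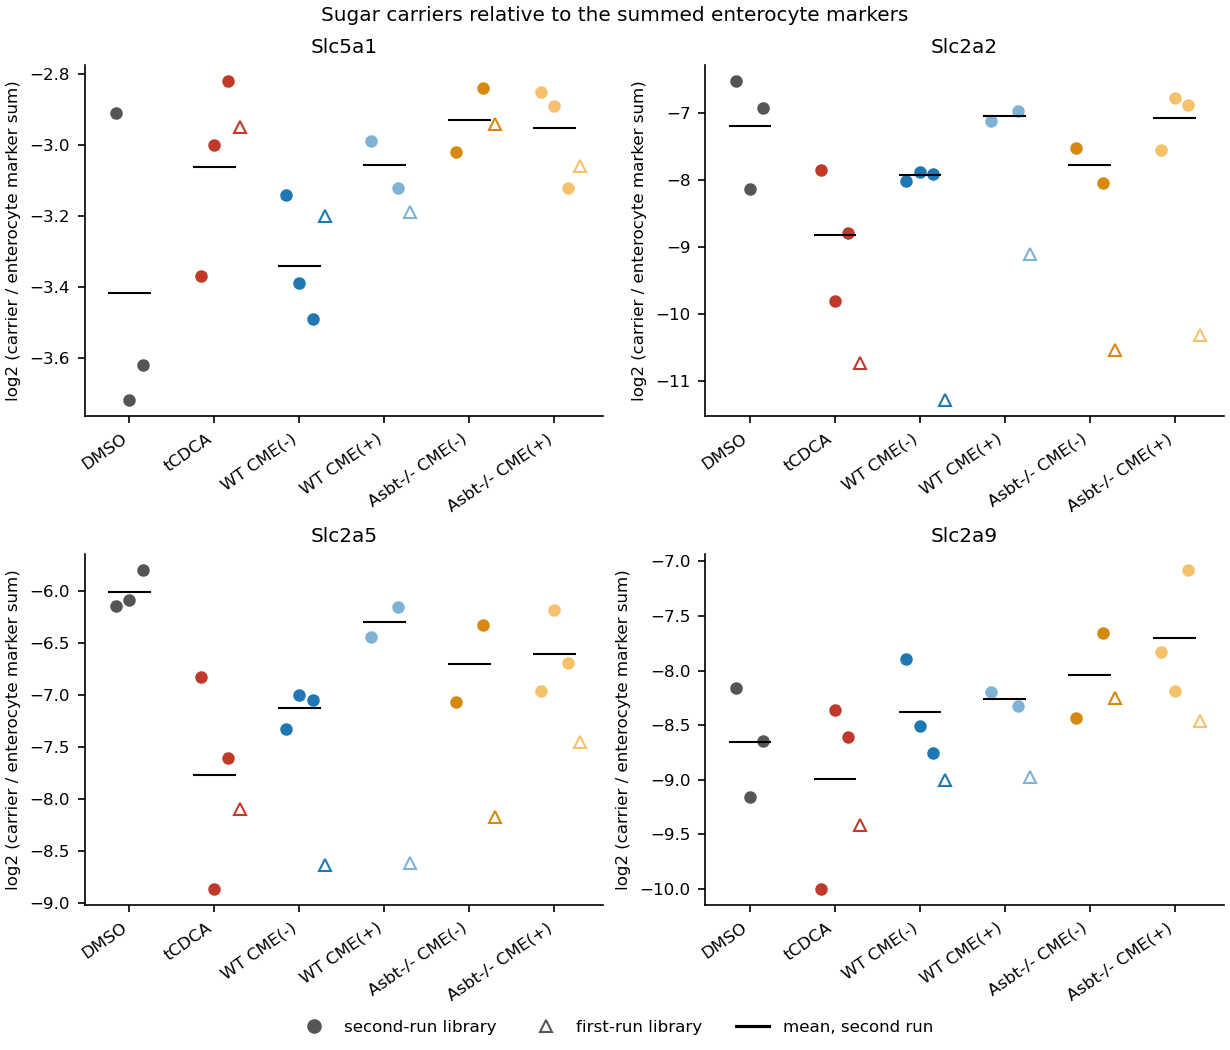
Log2 ratio of each carrier to the summed enterocyte markers (vertical axis) in each library by group (horizontal axis), second-run libraries as filled circles and first-run libraries as open triangles. For Slc2a5 every treated library lies below the 3 DMSO libraries, and for Slc5a1 the groups overlap.

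Genes that act before and after the carriers were lower with tCDCA as well. Of the 4 brush border disaccharidases, which release monosaccharides for the carriers, 3 were called lower, with a median of -1.59 over the 4. Sis, sucrase-isomaltase, went from 1121 ± 264 to 311 ± 89.5 CPM (n = 3 each, second run) and fell by 1.58 ± 0.28 log2 units (edgeR adjusted p = 0.00137). Mgam, maltase-glucoamylase, fell by 1.20 ± 0.18 and Treh, trehalase, by 1.60 ± 0.32. Lct, lactase, was at -1.82 ± 1.58 and did not pass.

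Inside the cell, fructose is phosphorylated by Khk (ketohexokinase), and the glyceraldehyde formed later is phosphorylated by Tkfc. Both fell with tCDCA, Tkfc by 1.45 ± 0.21 log2 units (edgeR adjusted p = 1.04e-05) and Khk by 1.24 ± 0.25 (0.00120). G6pc, the catalytic subunit of glucose 6-phosphatase, went from 9.14 to 15.9 CPM with DMSO to 0 to 1.02 CPM with tCDCA (fitted change -4.55 ± 0.72, adjusted p = 3.71e-05). They were among the 4 called, all lower, of 11 genes of fructose and glucose metabolism, whose median was -0.93, and Khk is named besides the rule that picked those with the smallest p. The hexokinases Hk1 and Hk2 were at 0.40 ± 0.21 and 0.36 ± 0.18 and did not pass.

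Among 16 other hexose and inositol carriers, 8 had enough counts to be tested, and 2 were called lower with a median of -0.36. Slc5a9, which encodes a sodium-linked mannose carrier, fell by 2.06 ± 0.47 (adjusted p = 0.00425), and Slc5a4b, an Slc5a1 relative, by 2.22 ± 0.53 (0.00924). Slc5a4b has a near copy, Slc5a4a, with which it could share reads, so its value is uncertain. Slc2a1, the widely expressed glucose carrier GLUT1, was at 86.0 ± 14.2 CPM with DMSO and 147 ± 75.7 with tCDCA (0.75 ± 0.24, adjusted p = 0.0621), and did not pass. Slc2a7, the gene next to Slc2a5, had 0 to 2 counts per library, as did the RNA 1700112D23Rik, which overlaps Slc2a2 in RefSeq.

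SGLT1 depends on the sodium gradient. Of 5 genes that keep it, 3 were called lower (median -0.78), among them the sodium pump subunit Atp1b1 (-0.87 ± 0.17) and the sodium-proton exchanger Slc9a2 (-0.78 ± 0.22). Of 9 urate genes, 5 were tested and 3 called lower (median -0.69). These were the scaffold gene Pdzk1, from 84.7 ± 5.40 to 24.5 ± 2.36 CPM (-1.60 ± 0.32), the urate exporter gene Abcg2 (-0.69 ± 0.15) and Xdh, whose product makes urate (-1.49 ± 0.37). Of 8 sugar response genes, 5 were tested and 1 was called: Mlxipl, which encodes the sugar-sensing factor ChREBP, fell by 0.98 ± 0.24 (adjusted p = 0.00996). Txnip, a well known ChREBP target, was at 0.12 ± 0.15, and the list's median was -0.06. Of 10 intestinal transcription factors (median -0.16), Hnf4g (-1.26 ± 0.25) and Cdx2 (-1.20 ± 0.27) fell and Cdx1 rose (0.83 ± 0.24), while Hnf4a was at -0.24 ± 0.16.

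With the extracts few of these related genes passed against DMSO. WT CME(-) and WT CME(+) had 0 called in the 7 lists. Asbt-/- CME(-) had Slc5a4b (-2.50 ± 0.63, adjusted p = 0.0454) and Slc9a3, the brush border sodium-proton exchanger (-3.47 ± 0.88, 0.0412), lower. Slc9a3 was near the floor there, at 0.392 and 1.15 CPM in the second run and 0.195 in the first. With DMSO it was at 2.14 to 10.8 CPM. Asbt-/- CME(+) had Treh lower (-1.23 ± 0.31, 0.0225) and Cdx1 higher (1.01 ± 0.24, 0.0181). In tCDCA relative to WT CME(+), where 3 carriers were called, Tkfc (-1.14 ± 0.20), Sis (-1.26 ± 0.27) and Mgam (-1.06 ± 0.18) were lower too.

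**Figure D4:**
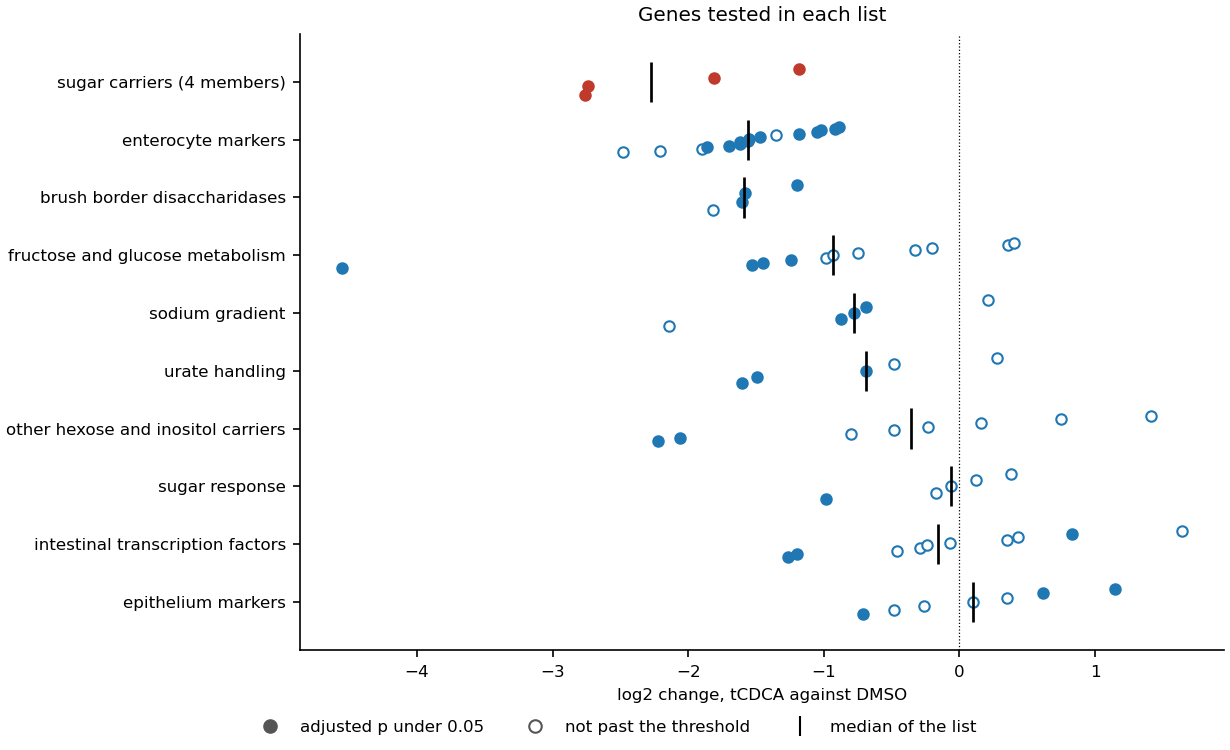
Log2 change with tCDCA against DMSO (horizontal axis) of the 4 carriers, the 7 related lists and the enterocyte and epithelium markers, with 1 point per tested gene. Called genes are filled, and vertical bars are list medians. Of the 7 related lists the disaccharidases (median -1.59) lie furthest below 0, and the sugar response genes (median -0.06) are spread around it.

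The genes most like each carrier in pattern were found by Pearson's r of log2 CPM over the 21 libraries, after taking out each run's mean, among 7650 genes with a mean log2 CPM of at least 3. Libraries share treatment, so these values are descriptions without a test. Slc5a1 was closest to Sis (r = 0.951), Dpp4, a brush border peptidase gene (0.941), Sectm1b (0.926), Tm6sf2 (0.911) and Slc2a5 (0.906). Slc2a5 was closest to Dpp4 (0.933), Cyp3a25 (0.912), Mpp1 (0.911), Slc5a1 (0.906) and Aspa (0.902). Cyp3a25 belongs to a family of similar copies and is uncertain. Slc2a2 was closest to Thra, a thyroid hormone receptor gene (0.896), Acy3 (0.888), Gda (0.887), Mttp, which loads lipid onto lipoproteins (0.886), and Dpp4 (0.881). Slc2a9 had Acta1 (0.885), Galm, which interconverts the anomers of hexoses (0.879), Anpep (0.878), Mgam (0.866) and Pls1, an actin bundler of microvilli (0.860). Between carriers r was 0.850 to 0.906 among Slc5a1, Slc2a2 and Slc2a5 and 0.649 to 0.729 between Slc2a9 and each of them.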

How the data were processed

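The counts deposited by the authors are whole numbers per gene in 24 libraries, without normalization. The submitters' processing notes name the mouse build GRCm39 and, with no version, FastQC, cutadapt, HISAT2 and Picard. How reads were assigned to genes (tool, strand, annotation) is not given in the sources used here. Symbols came from GENCODE M21 and upstream sequences from RefSeq, both on GRCm38, so the files' genes were given no coordinates. The 3 libraries that the labels mark as removed stayed out.

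The test was that of edgeR 4.0.16 in R 4.3.3 (filterByExpr, TMM, robust quasi-likelihood, terms for group and run). All 21 libraries entered 1 model with 14 contrasts, and p-values were adjusted over the 13125 genes tested by Benjamini-Hochberg and called under 0.05. Since DMSO has no first-run library in use, its run effect came from the other groups. The common biological coefficient of variation was 0.266. The counts of replicate pairs differed by more than sampling noise (chi-square per degree of freedom at least 7.21). The pairing comes from the labels. Same-donor libraries of CME(-) and CME(+) deviated from their group means with r = -0.013 to 0.056 (4 pairs). Each pair includes a group with 2 second-run libraries, whose deviations mirror each other, so these r values cannot decide on pairing. Genes named were the 4 carriers, up to 3 called genes with the smallest p per related list, and the 5 genes nearest in pattern. Marker genes and exceptions were named besides, after their values were seen. The members and lists were chosen with earlier results of these data known. The model was tested on simulated data without a difference between runs, so that test does not cover the run effect.

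Alternatives tried were other scalings, DESeq2 1.42.0, no filter on low counts, no run term, the second run alone, all 24 libraries, replicate blocks, the compared groups alone and each library left out, and, for the ratios, other reference genes. Some genes counted in the lists are not reported here by name.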

Additional observations from a re-analysis of the deposited data

Results flagged for a closer look

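In each group of 4 libraries, the highest and the lowest value of each carrier were checked for a gap that is large against the group's range, in 24 groups of values, where chance gives about 1 in 20. Slc5a1 in Asbt-/- CME(+) replicate 3 was at 663 CPM, while the other 3 libraries of the group were at 438 to 469.7 CPM. The log2 ratio of Slc2a2 to the enterocyte markers in WT CME(-) replicate 1 was -11.29, while the other 3 were at -8.01 to -7.87, and that library is the first-run library of its group.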

How the results depend on the processing

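No called carrier changed direction in any alternative run. For tCDCA against DMSO, all 4 were lower in all 16 alternatives: Slc5a1 ranged from -1.29 to -1.05 and Slc2a9 from -2.07 to -1.66 log2 units, both called in all 16, while Slc2a2 (-3.57 to -2.31) was called in 14 and Slc2a5 (-3.34 to -2.36) in 12. Between tCDCA and Asbt-/- CME(-), the Slc2a9 call was lost, among other alternatives, with the replicate block (-1.42, adjusted p = 0.0710), and between tCDCA and Asbt-/- CME(+) it was lost only without the run term (adjusted p = 0.0722). Between tCDCA and WT CME(+), Slc2a2 was not called in the second run alone (-2.64, adjusted p = 0.0733), and Slc2a5 was called with all 24 libraries (-2.28, adjusted p = 0.0487). Total-count scaling moved the median of all genes by 0.13 log2 units for tCDCA against DMSO and by 0.22 for Asbt-/- CME(+) against DMSO. Replicate numbers pair samples by label only for CME(-) and CME(+). Same-numbered libraries of different groups deviated with r = -0.115 to 0.080 (35 pairs), and the block changed no other carrier call. With total counts as the only scaling, genes called against DMSO numbered 427 with tCDCA, 10 with WT CME(-), 10 with WT CME(+) and 18 with Asbt-/- CME(-), and between tCDCA and an extract 94 with WT CME(+), 0 with Asbt-/- CME(-) and 152 with Asbt-/- CME(+), with those between extracts at 0 with Asbt-/- CME(-) against Asbt-/- CME(+). Carriers called between tCDCA and an extract numbered 0 with WT CME(-), 0 with Asbt-/- CME(-) and 2 with Asbt-/- CME(+). With DESeq2, genes called against DMSO numbered 137 with WT CME(-), 165 with WT CME(+), 314 with Asbt-/- CME(-) and 543 with Asbt-/- CME(+), and between tCDCA and an extract 474 with WT CME(-), 392 with WT CME(+), 155 with Asbt-/- CME(-) and 654 with Asbt-/- CME(+). Extract comparisons gave 123 with WT CME(-) against WT CME(+), 143 with Asbt-/- CME(-) against Asbt-/- CME(+), 113 with Asbt-/- CME(-) against WT CME(-), 82 with Asbt-/- CME(+) against WT CME(+) and 57 for the difference between donors. Carriers called against DMSO numbered 1 with Asbt-/- CME(-), and between tCDCA and an extract 3 with Asbt-/- CME(+). With no filter on low counts, genes called against DMSO numbered 107 with WT CME(-), 83 with WT CME(+), 258 with Asbt-/- CME(-) and 476 with Asbt-/- CME(+), and between tCDCA and an extract 196 with WT CME(-) and 78 with Asbt-/- CME(-). Calls between extracts numbered 17 with WT CME(-) against WT CME(+), 59 with Asbt-/- CME(-) against Asbt-/- CME(+), 4 with Asbt-/- CME(-) against WT CME(-) and 2 with Asbt-/- CME(+) against WT CME(+). Carriers called against DMSO numbered 1 with WT CME(-), 2 with Asbt-/- CME(-) and 2 with Asbt-/- CME(+), and between tCDCA and an extract 3 with WT CME(-) and 3 with Asbt-/- CME(+), and between extracts 1 with WT CME(-) against WT CME(+). Without the run term, genes called against DMSO numbered 176 with tCDCA, 2 with WT CME(-), 3 with WT CME(+), 3 with Asbt-/- CME(-) and 3 with Asbt-/- CME(+), and between tCDCA and an extract 0 with WT CME(-), 0 with WT CME(+), 0 with Asbt-/- CME(-) and 3 with Asbt-/- CME(+), with those between extracts at 1, for Asbt-/- CME(-) against Asbt-/- CME(+). Carriers called against DMSO numbered 2 with tCDCA, and between tCDCA and an extract 0 with WT CME(-), 0 with WT CME(+), 0 with Asbt-/- CME(-) and 0 with Asbt-/- CME(+). In the second run alone, genes called against DMSO numbered 15 with WT CME(-), 14 with WT CME(+) and 56 with Asbt-/- CME(-), and between tCDCA and an extract 80 with Asbt-/- CME(-). Extract comparisons gave 1, for WT CME(-) against WT CME(+). With all 24 libraries, genes called against DMSO numbered 418 with tCDCA, 4 with WT CME(-), 1 with WT CME(+), 9 with Asbt-/- CME(-) and 50 with Asbt-/- CME(+), and between tCDCA and an extract 39 with WT CME(-) and 405 with WT CME(+). Calls between extracts numbered 1, for Asbt-/- CME(-) against Asbt-/- CME(+). With the compared groups fitted alone, genes called against DMSO numbered 197 with tCDCA, 3 with WT CME(-), 2 with WT CME(+), 16 with Asbt-/- CME(-) and 9 with Asbt-/- CME(+), and between tCDCA and an extract 17 with WT CME(-), 27 with WT CME(+) and 2 with Asbt-/- CME(-), with those between extracts at 75 with Asbt-/- CME(-) against Asbt-/- CME(+) and 2 with Asbt-/- CME(-) against WT CME(-). Carriers called against DMSO numbered 2 with tCDCA, and between tCDCA and an extract 0 with WT CME(-), 0 with WT CME(+) and 0 with Asbt-/- CME(-). With the replicate number as a block, genes called against DMSO numbered 81 with Asbt-/- CME(-), and between tCDCA and an extract 4 with Asbt-/- CME(-). Extract comparisons gave 1, for Asbt-/- CME(-) against Asbt-/- CME(+). Carriers called between tCDCA and an extract numbered 0 with Asbt-/- CME(-). With the extract donor as a replicate block, genes called between extracts numbered 1 with WT CME(-) against WT CME(+), 22 with Asbt-/- CME(-) against Asbt-/- CME(+) and 1 for the difference between donors. With each library left out in turn, genes called ranged against DMSO from 327 to 812 with tCDCA, 7 to 69 with WT CME(-), 5 to 29 with WT CME(+), 10 to 170 with Asbt-/- CME(-) and 56 to 401 with Asbt-/- CME(+), while between tCDCA and an extract they ranged from 30 to 135 with WT CME(-), 54 to 295 with WT CME(+), 0 to 58 with Asbt-/- CME(-) and 118 to 318 with Asbt-/- CME(+). Between extracts they ranged from 0 to 1 with WT CME(-) against WT CME(+), 1 to 10 with Asbt-/- CME(-) against Asbt-/- CME(+), 0 to 1 with Asbt-/- CME(-) against WT CME(-), 0 to 1 with Asbt-/- CME(+) against WT CME(+) and 0 to 0 for the difference between donors. Carriers called ranged against DMSO from 3 to 4 with tCDCA, and between tCDCA and an extract 0 to 2 with WT CME(-), 1 to 3 with WT CME(+), 0 to 1 with Asbt-/- CME(-) and 1 to 3 with Asbt-/- CME(+), and stayed at 0 in the other comparisons. Fits of part of the series hold fewer libraries, and the cause of the other shifts was not tested. Counts of 8 to 29 per library for Slc2a2 in the first run limit its precision there.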
